A study of Mus musculus with 237 samples.

Results

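Cap mesenchyme cells of the embryonic mouse kidney that carry a Pax2 mutation were compared between the embryonic days E18.5 and E13.5. The members were taken from the labels, with no use of measured values: 44 cells labelled Pax2 mutant cap mesenchyme at E18.5 and 29 at E13.5, or 73 of the 237 cells of the series. The other cells were wild type, and comprised 74 cap cells and 71 interstitium cells at E18.5 and 18 cap cells at E13.5. The label calls the strain mixed in every group, and does not give the Pax2 allele or the number of embryos. Titles of the interstitium cells carry the name FoxD1_GCE. For mutant and wild-type cap cells the promoter or Cre line is not given. Cells were dissociated with proteases, sorted for the population of interest and captured singly in a Fluidigm C1 device, so the sort can set which cells each group holds. Sequencing titles place the E18.5 mutant cells in pool 4 and the E13.5 mutant cells in pool 3, each with a date of its own, so age, pool and date cannot be told apart. No label names an embryo. Each age therefore counts as 1 sample, no test between ages was possible, and SDs describe the spread between cells.

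The cap mesenchyme is the cluster of progenitors around each ureteric bud tip that renews itself through much of kidney development and gives rise to nephrons. The interstitium, which descends from Foxd1-positive progenitors, surrounds it and lays down the collagen-rich matrix of the kidney. Pax2 is a paired-domain transcription factor that nephron formation requires. Many embryonic tissues also pass through a shared maturation programme in which fetal regulators such as Hmga2, Igf2bp1 and Igf2bp3 decline, the NFI transcription factors increase and division slows.

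Levels are given in RPKM, which divides reads by transcript length and by the total mapped in that cell, and differences as E18.5 minus E13.5 in the mean over cells of log2(RPKM + 1), a scale that understates differences of low genes. Detection means 1 RPKM or more, and ranges after a share are its exact 95% interval (Clopper-Pearson), for counting error alone. The median number of genes detected per cell was 3643 in E18.5 mutant cells (2284 to 5109) and 4560 in E13.5 mutant cells (1849 to 5858), and the read depth behind it is unknown. Xist without Y-linked transcripts was found in 42 of 44 and 27 of 29 cells. A mitochondrial-like pseudogene entry reached 20000 RPKM in 4 of 44 E18.5 and 8 of 29 E13.5 mutant cells. At E18.5, 1 cell held 7 of 10 immune genes, and at E13.5, 2 cells held 6 or more of 12 epithelial adhesion genes.

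Pax2 itself was found at the earlier age. Pax2 (gene ID 18504, mm10 chromosome 19, 44757394 to 44837869) was listed at 0 in all 44 E18.5 mutant cells, which allows a share of up to 6.82% of cells. In E13.5 mutant cells it had a lowest value of 0, a median of 1.62 and a highest of 25.9 RPKM, and was detected in 17 of 29 cells (58.6%, 38.9 to 76.5). A value per gene cannot show whether the transcript is intact, and the labels do not say whether both ages carry the same allele. All differences below are therefore between cells that share the label and differ in Pax2 transcript.

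The label was set against markers. Of 9 nephron progenitor markers (Six2, Cited1, Eya1, Sall1, Osr1, Gdnf, Meox1, Crym and Itga8), 3 or more were detected in 0 of 44 E18.5 mutant cells and 8 of 29 E13.5 mutant cells, against 68 of 74 and 15 of 18 wild-type cap cells of E18.5 and E13.5. Of 8 interstitium markers (Foxd1, Meis1, Tbx18, Pdgfra, Pdgfrb, Col1a1, Col3a1 and Dcn), 3 or more were detected in 44 of 44 E18.5 mutant cells and 16 of 29 E13.5 mutant cells, against 12 of 74 and 3 of 18 wild-type cap cells. The E13.5 mutant cells were mixed: 5 had 3 or more progenitor markers only, 13 interstitium markers only, 3 both and 8 neither. At least 1 progenitor marker was detected in 22 of 44 E18.5 and 25 of 29 E13.5 mutant cells. The data thus go against the label cap mesenchyme for the E18.5 cells and for the 13 E13.5 cells with interstitium markers only, and the groups are called E18.5 and E13.5 mutant cells below. Any of 5 committing nephron markers was found in 40 of 44 and 27 of 29 cells, mostly Wnt4 (39 and 26 cells), and 3 or more in 1 and 2 cells. Any of 4 podocyte markers was found in 38 of 44 and 22 of 29 cells, mostly Nphs1 (38 and 18 cells), and 3 or more in none. In wild-type cap cells of E18.5 and E13.5, any committing marker was found in 73 of 74 and 17 of 18, and any podocyte marker in 57 of 74 and 15 of 18. Endothelial, skeletal muscle, erythroid and ureteric markers were rare at both ages, with 7 of 44 E18.5 and 4 of 29 E13.5 cells holding any of 5 ureteric markers, and 4 of 44 and 1 of 29 any of 5 endothelial markers. Any of 4 mural markers was found in 25 of 44 and 15 of 29 cells, any of 4 neural and glial markers in 7 of 44 and 10 of 29, and any of 4 immune markers in 4 of 44 and 0 of 29. In wild-type cap cells of E18.5 and E13.5, any mural marker was found in 50 of 74 and 13 of 18. Any neural and glial marker was found there in 42 of 74 and 12 of 18, and any immune marker in 9 of 74 and 1 of 18.

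Of 10872 genes detected in 10% of the cells at either age, 727 were higher by 1 log2 unit or more at E18.5 (6.69%) and 1252 were lower (11.5%), and the median difference was -0.16. These are counts of size, not of tests. The list counts below are to be read beside these shares of 6.69% and 11.5%. A gene undetected at 1 age can pass the filter only through the other, which favours a difference in that direction. Without the 12 pseudogene-high cells, 594 genes were higher and 2187 lower. The same contrast in wild-type cap cells, which also differ in sex (Xist at E18.5, Y-linked transcripts at E13.5), gave 289 higher (2.53%) and 1659 lower (14.5%) of 11423 genes, with a median of -0.21. These wild-type cells also differ in pool (2 at E18.5, 3 at E13.5) and date. Pseudogene-high cells were 20 of 74 at E18.5 and 1 of 18 at E13.5 there. The wild-type contrast was not repeated without them. Of the 727 genes higher in the mutant, 638 could be set beside wild type: 67 were higher there by 1 log2 unit or more, 54 lower and 517 between, with a wild-type median of -0.00026. Of the 1252 lower genes, 1241 could be set beside wild type, where 546 were lower too, 16 higher and 679 between, with a median of -0.88. No cells are shared between the genotypes, and the difference between them was not tested.

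Matrix and signalling genes of mesenchyme stood highest at E18.5. Penk (ID 18619, chromosome 4, 4133536 to 4138815), which encodes the opioid peptide precursor proenkephalin, had a lowest value of 0, a median of 450 and a highest of 3419 RPKM in E18.5 mutant cells, against a lowest of 0, a median of 0 and a highest of 921 RPKM in E13.5 mutant cells. It was detected in 41 of 44 cells (93.2%, 81.3 to 98.6) at E18.5 and 7 of 29 (24.1%, 10.3 to 43.5) at E13.5, a difference of 6.51 between means of 7.55 ± 3.51 and 1.05 ± 2.18. Values overlapped, but 43 of 44 E18.5 cells lay above the E13.5 median and 16 lay above the highest E13.5 cell. The wild-type cap difference was 0.63, and wild-type interstitium cells of E18.5 had a mean of 6.94.

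Postn (ID 50706, chromosome 3, 54361107 to 54391041), which encodes the matricellular protein periostin, had a lowest value of 0, a median of 173 and a highest of 1707 RPKM at E18.5, against 0, 0 and 1.47 RPKM at E13.5. Detection reached 31 of 44 E18.5 cells and 1 of 29 E13.5 cells, and 30 of the E18.5 cells lay above every E13.5 cell. The difference was 5.41 in mutant cells and -0.32 in wild-type cap cells. Ifitm1 (ID 68713, chromosome 7, 140967429 to 140969827), of a family of interferon-induced membrane proteins, had a lowest value of 0, a median of 114 and a highest of 735 RPKM at E18.5, against 0, 0 and 0.13 RPKM at E13.5. Transcript was detected in 33 of 44 E18.5 cells and 0 of 29 E13.5 cells, which allows a share of up to 10.3%, and differed by 5.46 against -0.83 in wild type. Its neighbours Ifitm2 (3.56) and Ifitm3 (4.88) were higher too. The authors' counting may split reads between these related genes. Of 14 Ifitm and interferon-induced genes 4 passed the filter, and all 4 were higher, the last being Ifi27 (1.68). Over all genes past the filter 6.69% were higher. Ifitm1, undetected at E13.5, passed through E18.5 cells alone, so its direction was set by the filter. The other 10 did not pass.

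**Figure D1:**
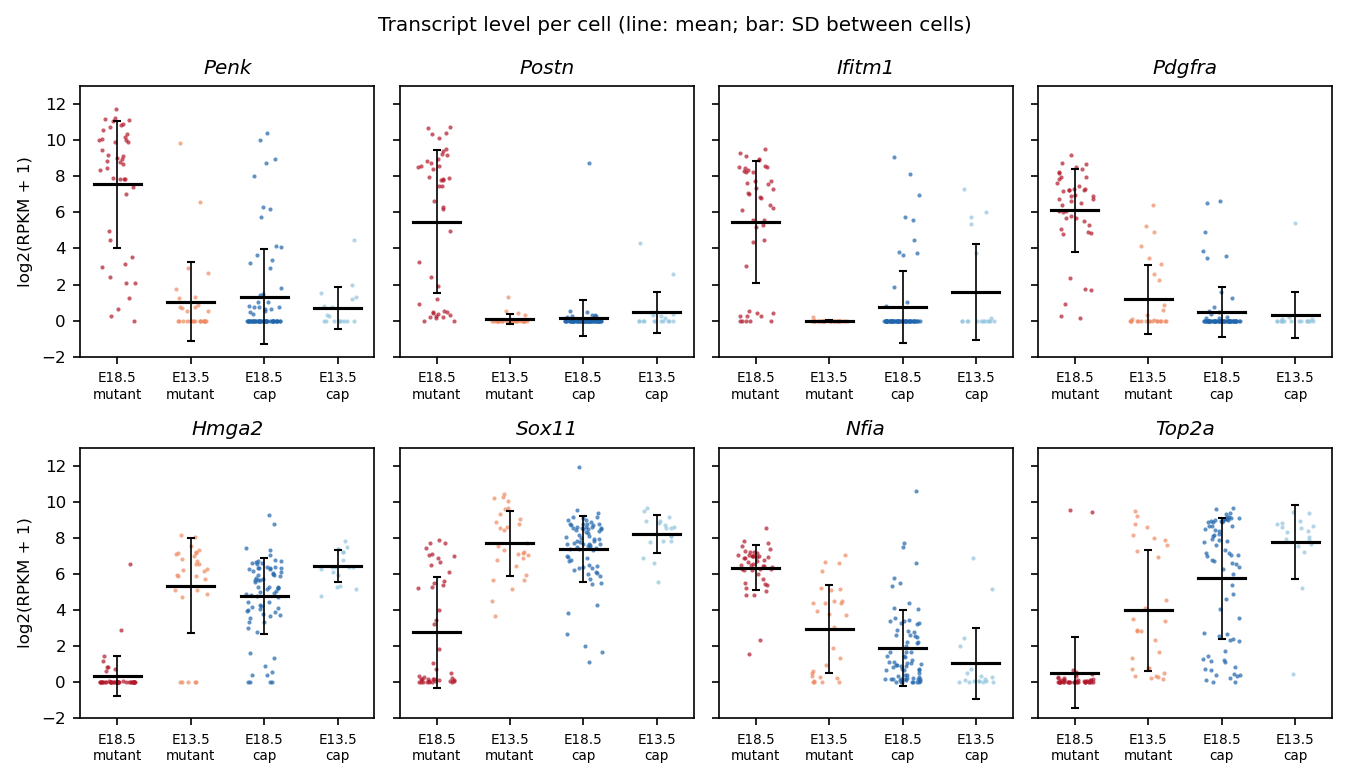
Transcript level of 8 genes in single cells as log2(RPKM + 1), by group, with points for cells, lines for means and bars for the SD between cells (44 E18.5 mutant, 29 E13.5 mutant, 74 E18.5 wild-type cap and 18 E13.5 wild-type cap cells). Penk, Postn, Ifitm1, Pdgfra and Nfia stand higher in E18.5 than in E13.5 mutant cells, and Hmga2, Sox11 and Top2a lower.

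Of 10 complement and acute phase genes 5 passed the filter, 3 of which were higher and none lower (median 1.22; 0.0087 in wild type). These were C1s (3.54), a protease of the classical complement pathway, Serping1 (3.19), its inhibitor, and the lipid carrier gene Apoe (1.22). Clu, an extracellular chaperone gene, was listed at 0 in all 44 E18.5 cells and detected in 3 of 29 E13.5 cells.

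Collagens and their partners were higher together. Of 14 fibrillar and associated collagen genes 13 passed the filter, 9 were higher and none lower (median 2.20), while none of the 13 differed by 1 log2 unit in wild-type cap cells (median -0.098). The collagen list score (the mean over 14 members) was 3.19 in E18.5 mutant cells and 2.64 in wild-type interstitium cells of E18.5. A high score was thus not particular to mutant cells. Col1a1 (ID 12842, chromosome 11, 94936270 to 94951856), a chain of type I collagen, had a lowest value of 1.10, a median of 123 and a highest of 1334 RPKM at E18.5, against 0, 15.2 and 278 RPKM at E13.5. At 1 RPKM it was found in 44 of 44 and 18 of 29 cells, and 41 E18.5 cells lay above the E13.5 median. Col3a1, of type III collagen, differed by 3.89, and the type VI chains Col6a3 (4.19) and Col6a1 (4.06) were detected in 41 and 35 of 44 E18.5 cells against 2 and 5 of 29 E13.5 cells. Small leucine-rich proteoglycans, which bind collagen fibrils, were higher for 5 of 6 genes past the filter out of 10 and lower for none (median 2.42), led by Bgn (4.20), Ogn (4.10) and Dcn (3.58). The exception was Omd, at 4.47 in E18.5 and 5.08 in E13.5 mutant cells. The proteoglycan list score was 2.28 in E18.5 mutant cells and 2.33 in wild-type interstitium cells of E18.5.

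Matricellular and adhesive glycoproteins were higher for 9 of 17 genes and lower for 1 (median 1.03; -0.19 in wild type), and matrix crosslinking and remodelling genes for 9 of 15 with none lower (median 1.27; 0.048 in wild type). Besides Postn, the higher glycoprotein genes included Sparcl1 (4.97) and Sparc (2.96), and Mfap5 was detected in 16 of 44 E18.5 cells and listed at 0 in every E13.5 cell. Mfap5 thus passed through E18.5 cells alone, so its direction was set by the filter. Timp2 (2.98), an inhibitor of matrix metalloproteases, P4ha1 (2.15), a collagen prolyl hydroxylase, and Mmp14 (1.95), a membrane-bound protease, led the remodelling list. Vcan, a large proteoglycan of early embryonic matrix, was the gene that was lower, at -1.76. Mmp2 was higher by 1.27, but its group means, taken as a log2 ratio, gave -0.064. The glycoprotein list score was 3.25 in E18.5 mutant cells and 3.34 in wild-type interstitium cells of E18.5. For crosslinking and remodelling genes the scores were 2.71 and 2.95.

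Pdgfra (ID 18595, chromosome 5, 75152291 to 75198204), the receptor for platelet-derived growth factor on mesenchymal cells, had a lowest value of 0.091, a median of 106 and a highest of 575 RPKM at E18.5, against 0, 0 and 84.5 RPKM at E13.5. It was detected in 41 of 44 cells at E18.5 and 8 of 29 at E13.5. Penk and Pdgfra were found in the same cell in 38 of 44 E18.5 and 2 of 29 E13.5 cells. As each was detected in 41 of 44 E18.5 cells, wide overlap follows from these shares, and association within cells was not tested. At E13.5, Pax2 and Pdgfra shared 2 cells, while 15 cells held Pax2 alone, 6 Pdgfra alone and 6 neither. Myl9 (4.51), a myosin light chain, was also among the 15 highest genes, while the smooth muscle list it belongs to had 2 of 8 genes higher and none lower. Islr (5.21) and Plac9a (5.23) completed the matrix-rich group of leading genes. The values of Plac9a and the near-identical Plac9b (5.22) cannot be told apart.

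Of 16 interstitial transcription factor and signal genes 15 passed the filter, 8 were higher and 2 lower (median 1.05; 0.027 in wild type). The secreted and membrane signals differed most: Dlk1 (3.54), a Notch-like inhibitor of differentiation, Smoc2 (3.27), Ntn1 (2.98), the guidance cue netrin-1, and Rspo3 (2.13), an amplifier of Wnt signalling. Crabp1, which carries retinoic acid in the cytoplasm, was higher by 3.54. The interstitial transcription factors differed less. Foxd1 (ID 15229, chromosome 13, 98354245 to 98356705) had a lowest value of 0, a median of 6.45 and a highest of 237 RPKM at E18.5 and 0, 0 and 256 RPKM at E13.5, and its difference of 1.62 became 0.63 as a log2 ratio of group means. Meis1 was detected in 42 of 44 and 26 of 29 cells and differed by 1.59, against -3.97 in wild-type cap cells. Tcf21, a mesenchymal transcription factor of the kidney, had means of 3.69 and 3.90. Meis2 (-1.31) and Tshz2 (-1.61) were lower.

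Nephron progenitor genes were low at both ages, with list scores (the mean over 15 members) of 0.73 ± 0.49 and 1.01 ± 0.64 in E18.5 and E13.5 mutant cells, against 2.96 ± 1.12 and 2.74 ± 1.15 in wild-type cap cells of E18.5 and E13.5. Of 12 members past the filter, 1 was lower and none higher, near the background of 11.5% of genes lower. The lower member was Eya1, a partner of Six2 in progenitor renewal, detected in 1 of 44 E18.5 and 12 of 29 E13.5 cells (-1.88). Six2, which holds progenitors undifferentiated, was detected in 1 of 44 and 9 of 29 cells, and Pax2 and Six2 were found together in 7 E13.5 cells. Wt1 (ID 22431, chromosome 2, 105126529 to 105173614), which acts in the early kidney mesenchyme and later in podocytes, kept near equal means of 3.54 ± 3.35 and 3.17 ± 3.15. All 25 E18.5 cells with Wt1 also held Penk, while 16 held Penk alone and 3 neither, so Penk was found in most cells with or without Wt1. Committing nephron, podocyte and ureteric epithelium lists each had 1 gene lower and none higher (Sox9 at -1.41, Foxc2 at -1.58 and Hoxb7 at -1.12). These lists had 5, 6 and 4 genes past the filter.

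**Figure D2:**
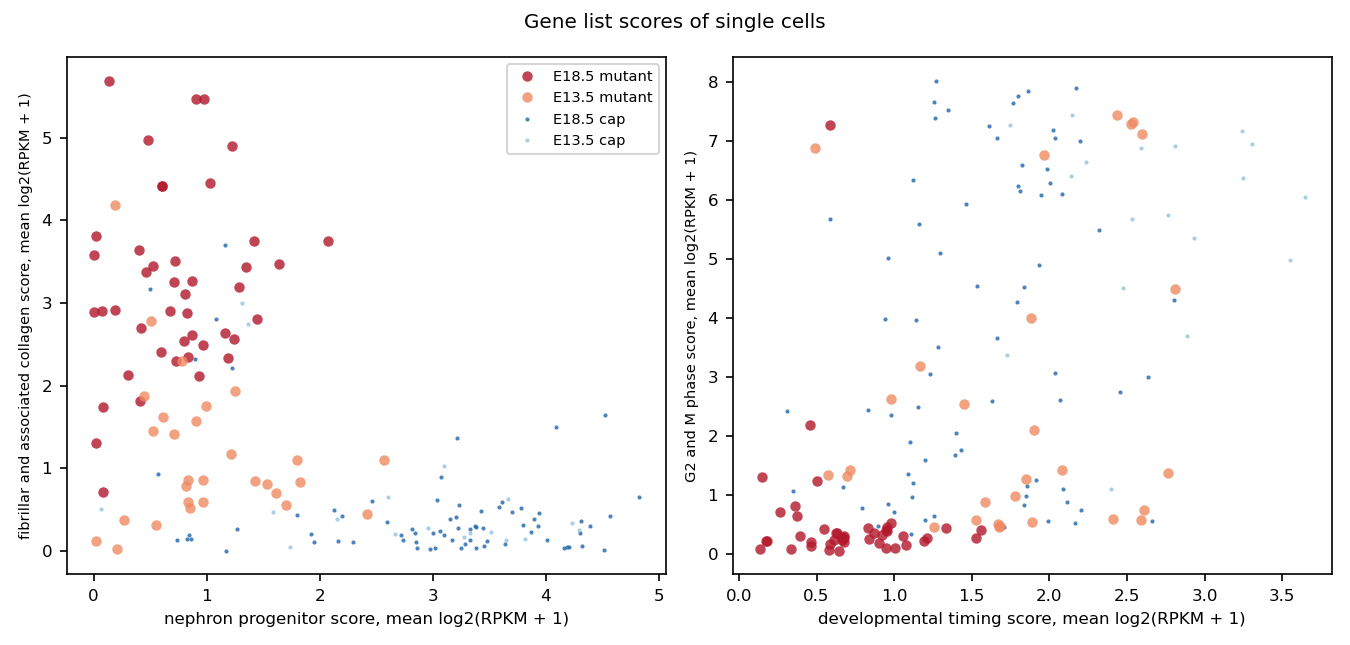
Scores of single cells, each the mean log2(RPKM + 1) over a list, for nephron progenitor against collagen genes (left) and developmental timing against G2 and M phase genes (right), with large points for mutant and small points for wild-type cap cells. Mutant cells of both ages lie at low progenitor scores, E18.5 mutant cells at the higher collagen scores, and 2 of 44 E18.5 against 11 of 29 E13.5 mutant cells hold 8 or more of the 16 G2 and M phase genes.

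Regulators of the embryonic state were lower at E18.5. Hmga2 (ID 15364, chromosome 10, 120361275 to 120476935), a chromatin protein of stem and progenitor cells, had a lowest value of 0, a median of 0 and a highest of 93.4 RPKM in E18.5 mutant cells, against 0, 72 and 289 RPKM in E13.5 mutant cells. It was detected in 4 of 44 cells (9.09%, 2.53 to 21.7) at E18.5 and 24 of 29 (82.8%, 64.2 to 94.2) at E13.5, and the difference was -5.01. The groups overlapped only in part, since 11 E13.5 cells lay above every E18.5 cell. In wild-type cap cells Hmga2 differed by -1.66 and was still detected in 66 of 74 cells at E18.5. Of 16 developmental timing genes 13 passed the filter, 6 were lower and none higher (median -0.77), and the same 13 gave 6 lower in wild type (median -0.96). The RNA-binding proteins Igf2bp1 (-2.39; -1.83 in wild type) and Igf2bp3 (-2.14; -3.66), which stabilise fetal transcripts, and Hmga1 (-1.67; -2.62) were among them. Hmga2 and Igf2bp3 shared 19 of 29 E13.5 cells and 2 of 44 E18.5 cells. At E13.5, 5 cells held Hmga2 alone, 2 Igf2bp3 alone and 3 neither, and association within cells was not tested.

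Sox11 (ID 20666, chromosome 12, 27334268 to 27342718), a SoxC transcription factor of embryonic progenitors, had a lowest value of 0, a median of 0.54 and a highest of 236 RPKM at E18.5, against 11.8, 183 and 1365 RPKM at E13.5. Detection was in 21 of 44 and 29 of 29 cells. All 29 E13.5 cells lay above the E18.5 median, and 27 of 44 E18.5 cells lay below the lowest E13.5 cell. Its difference of -4.93 compares with -0.85 in wild type, and its relative Sox4 had means of 2.11 and 1.94. Of 11 SoxC and embryonic HMG genes, 5 were lower and none higher (median -0.77), including the chromatin proteins Hmgb3 (-3.89) and Hmgb2 (-3.10). The same 11 gave 4 lower and 1 higher in wild-type cap cells, with a median of -0.85. The gene with the lowest difference of all named was Fam60a (-5.08; -0.87 in wild type), a subunit of a Sin3 deacetylase complex, detected in 9 of 44 and 28 of 29 cells. Nnat (-4.71), the imprinted neuronatin gene, and Peg12 (-4.47), another imprinted gene, followed Sox11, and the surface glycoprotein gene Cd24a differed by -4.13.

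NFI factors ran the other way, with 3 of 4 higher and none lower. Nfia (ID 18027, chromosome 4, 97581943 to 98118876) had a lowest value of 1.90, a median of 96.1 and a highest of 378 RPKM at E18.5, against 0, 12.3 and 132 RPKM at E13.5. All 44 E18.5 and 18 of 29 E13.5 cells held it, and 42 E18.5 cells lay above the E13.5 median. Nfix was detected in 26 of 44 and 0 of 29 cells (2.43), Nfic differed by 1.11, and Nfib had means of 5.34 and 5.13. Nfix, undetected at E13.5, passed the filter through E18.5 cells alone, so its direction was set by the filter. In wild-type cap cells the differences were 0.84 for Nfia, 0.24 for Nfix and 1.15 for Nfic. The NFI list score was 4.32 in E18.5 and 2.52 in E13.5 mutant cells. At E18.5 it was 3.83 in wild-type interstitium and 1.34 in wild-type cap cells, so it also differed between cell populations of the same age.

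**Figure D3:**
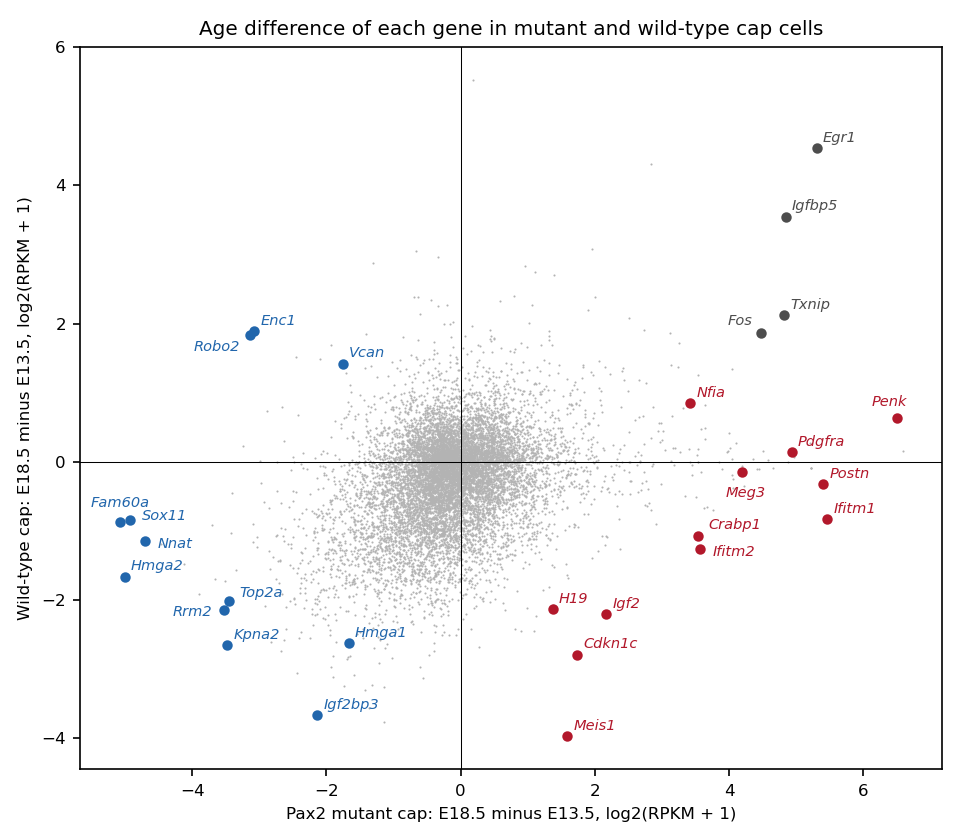
Difference between E18.5 and E13.5 in mean log2(RPKM + 1) for each gene in mutant cells (horizontal) and wild-type cap cells (vertical), with named genes labelled (red higher and blue lower in the mutant, grey higher in both genotypes). Penk, Postn and Ifitm1 lie far to the right near the wild-type zero line, Kpna2 and Igf2bp3 are lower in both genotypes, and Igf2, H19, Cdkn1c and Meis1 are higher in mutant and lower in wild-type cells.

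Cell cycle genes were low at E18.5. All 16 G2 and M phase genes passed the filter and all 16 were lower, against a background of 11.5% of genes, with a median of -1.96 (15 of 16 lower in wild type, median -2.06). Of 16 S phase genes, 12 were lower and none higher (median -1.79; 6 lower in wild type, median -0.87). Top2a (ID 21973, chromosome 11, 98992947 to 99024189), the topoisomerase that unlinks replicated chromosomes, had a lowest value of 0, a median of 0 and a highest of 745 RPKM at E18.5, against 0.14, 6.51 and 701 RPKM at E13.5. It was detected in 2 of 44 (4.55%, 0.56 to 15.5) and 20 of 29 cells (49.2% to 84.7%). Rrm2 (-3.52), of the enzyme that makes deoxynucleotides, Uhrf1 (-3.71), which guides maintenance DNA methylation, and Hells (-3.41), a chromatin remodeller, were among the 15 lowest genes. Without the pseudogene-high cells Top2a differed by -4.21.

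Promoters are shown for the 3 G2 and M phase genes with the largest negative differences, because genes of this phase are known to share CCAAT boxes, bound by NF-Y, and the cell cycle homology region TTTGAA. RefSeq promoters (GRCm38.p6, 250 bases before to 50 after the start, on the gene's strand) matched 14 of the 16 genes, not Ccna2 and Aurkb. Capitals mark CCAAT or TTTGAA on either strand, so also ATTGG and TTCAAA.
Kpna2 (chr11:106999476-106999775, minus strand): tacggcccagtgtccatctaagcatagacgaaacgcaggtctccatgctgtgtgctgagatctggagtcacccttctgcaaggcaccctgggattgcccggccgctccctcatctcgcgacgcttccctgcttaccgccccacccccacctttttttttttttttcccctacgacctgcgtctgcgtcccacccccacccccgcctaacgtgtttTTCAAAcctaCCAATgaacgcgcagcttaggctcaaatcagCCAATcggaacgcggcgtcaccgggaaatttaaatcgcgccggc
Top2a (chr11:99024140-99024439, minus strand): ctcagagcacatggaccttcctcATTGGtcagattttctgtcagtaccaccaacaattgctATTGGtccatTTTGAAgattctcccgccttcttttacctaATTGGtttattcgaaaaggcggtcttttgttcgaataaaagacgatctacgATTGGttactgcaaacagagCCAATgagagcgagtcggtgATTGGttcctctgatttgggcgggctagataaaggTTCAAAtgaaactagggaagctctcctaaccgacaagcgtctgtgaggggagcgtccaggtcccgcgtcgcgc
Ube2c (chr2:164769679-164769978, plus strand): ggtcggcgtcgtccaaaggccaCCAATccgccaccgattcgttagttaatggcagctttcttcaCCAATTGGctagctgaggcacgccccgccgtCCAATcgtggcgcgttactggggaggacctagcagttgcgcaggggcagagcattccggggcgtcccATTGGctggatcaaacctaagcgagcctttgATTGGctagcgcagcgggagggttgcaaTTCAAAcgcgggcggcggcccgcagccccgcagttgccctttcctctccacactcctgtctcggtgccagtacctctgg
Kpna2, an importin subunit, differed by -3.48 and its window holds 2 CCAAT and 1 TTTGAA. Top2a holds 6 and 2, and Ube2c (-2.67), which helps to tag mitotic cyclins for destruction, holds 6 and 1, of which a pair overlaps in CCAATTGG. Both motifs together were found in 78.6% of the 14 promoters of the list, 5.19% of 10874 promoters of genes past the filter and 6.95% of all 32851 promoters. A match describes the letters in the window and no more.

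Imprinted growth genes were higher as a group in mutant cells. Of 18 genes 16 passed the filter, 10 were higher and 1 (Nnat) lower, with a median of 1.51. The same 16 gave none higher and 5 lower in wild-type cap cells, with a median of -0.36. The list score was 4.54 in E18.5 mutant and 3.21 in E13.5 mutant cells. It was 3.89 in wild-type interstitium and 2.68 in wild-type cap cells of E18.5, so a high score was not particular to mutant cells. The series has no E13.5 interstitium group, so no age difference could be given there. Igf2 (ID 16002, chromosome 7, 142650768 to 142661035), the fetal growth factor, had a lowest value of 0, a median of 157 and a highest of 2271 RPKM in E18.5 mutant cells, against 0, 22.9 and 928 RPKM in E13.5 mutant cells. The groups overlapped widely, though 42 of 44 E18.5 cells lay above the E13.5 median. The difference was 2.17 in mutant and -2.21 in wild-type cap cells. H19, the non-coding RNA beside Igf2, gave 1.37 and -2.13, and Cdkn1c, an inhibitor of the cell cycle in the neighbouring domain, 1.73 and -2.79. As log2 ratios of group means the mutant differences were 1.01 for Igf2, 0.43 for H19 and 1.03 for Cdkn1c.

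Some members of the Dlk1 and Meg3 domain of chromosome 12 were among the most different. Its members Rtl1 (0.70) and Mirg (0.62) did not reach 1 log2 unit. The non-coding RNA Meg3 (ID 17263, chromosome 12, 109540996 to 109571729) had a lowest value of 0.24, a median of 69.3 and a highest of 572 RPKM at E18.5, against 0, 0.13 and 109 RPKM at E13.5. Meg3 was found in 43 of 44 and 12 of 29 cells. Rian, downstream of it, differed by 4.44 and was found with Meg3 in 39 of 44 and 4 of 29 cells, and Dlk1 was detected in 38 of 44 and 1 of 29 cells. In wild-type cap cells Meg3 (-0.15), Rian (-0.10) and Dlk1 (-0.0021) hardly differed. Plagl1 (4.22; -0.34 in wild type), an imprinted zinc finger gene, and Igf2r (1.99; -0.54), which clears Igf2, were higher as well, while Grb10 had means of 4.99 and 4.95.

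**Figure D4:**
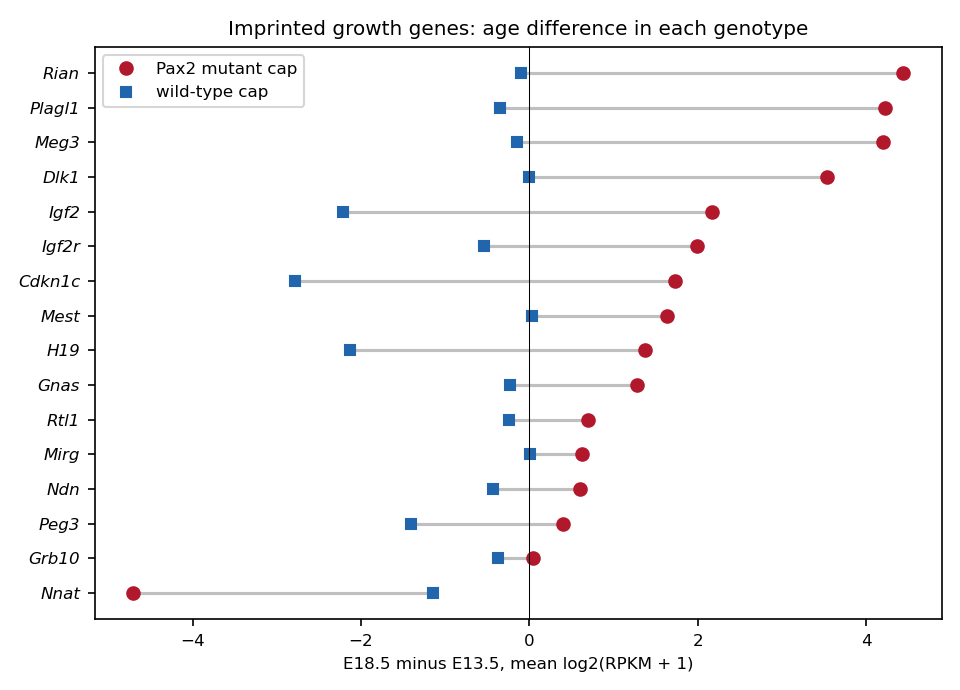
Difference between E18.5 and E13.5 in mean log2(RPKM + 1) for the 16 imprinted growth genes past the filter, with a circle for mutant and a square for wild-type cap cells. Igf2, H19 and Cdkn1c lie on opposite sides of 0 in the 2 genotypes, and Nnat is lower in both.

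Growth and signal genes outside imprinting gave a mixed picture. Igfbp5 (4.84), which binds insulin-like growth factors, was also higher in wild type (3.55), and of 9 IGF-binding and receptor genes 4 were higher and none lower, Igf1 by 2.77. Immediate early genes were higher for 6 of 12 past the filter and lower for none (median 1.07). Egr1 (ID 13653, chromosome 18, 34861207 to 34864956), an early response transcription factor, had a lowest value of 0, a median of 391 and a highest of 2129 RPKM at E18.5, against 0, 0.24 and 353 RPKM at E13.5. Its difference of 5.31 stood beside 4.54 in wild-type cap cells. Fos gave 4.48 and 1.86, while Btg2 (4.04; -0.19) and Jun (2.73; -0.14) were not higher in wild type. Txnip (4.82; 2.13), a regulator of glucose uptake, was another leading gene.

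FGF response genes, which mark signalling in the progenitor niche, had 1 of 10 lower and none higher in mutant cells (median -0.44), near the background, and 3 higher and 1 lower in wild type (median 0.64). Retinoic acid genes were higher for 4 of 9 and lower for 1 (Stra6, the retinol receptor, at -2.15), with Dhrs3 (1.96) beside Crabp1. Annexin, S100 and galectin genes were higher for 5 of 10 and lower for none, led by S100a6 (3.98) and Lgals1 (3.63). Of the BMP and TGF-beta response list, Id2 (-2.02), Id3 (-1.70), Id1 (-1.28) and Bmp4 (-2.17) were lower, and Tgfbi (1.39) and Cyr61 (1.05) higher.

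Metabolic and biosynthetic genes were lower in part. Serine and one-carbon genes were lower for 5 of 8 with none higher (median -1.24), with Phgdh (-1.87), the first enzyme of serine synthesis, and Mthfd2 (-1.42). Glycolysis had 5 of 14 lower and 1 higher (median -0.49), with Pkm at -2.62 and Gapdh at -1.91. Oxidative phosphorylation had 5 of 14 lower and 1 higher (median -0.83), against 13 of 14 lower in wild type (median -1.53). The higher gene, Cox4i1, turned to -0.56 without the pseudogene-high cells. Housekeeping genes had 1 higher and 1 lower of 11 (median -0.14), beside a median of -0.16 over all genes. Of 12 DNA methylation and chromatin genes, 5 were lower and 1 higher (median -0.54; 1 lower and none higher in wild type). The lower ones were Uhrf1, the Polycomb genes Ezh2 (-2.73), Suz12 (-2.25) and Eed (-1.09, with the opposite sign as a ratio of group means) and the maintenance methyltransferase gene Dnmt1 (-1.80), and the higher one was Tet2 (1.41).

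**Figure D5:**
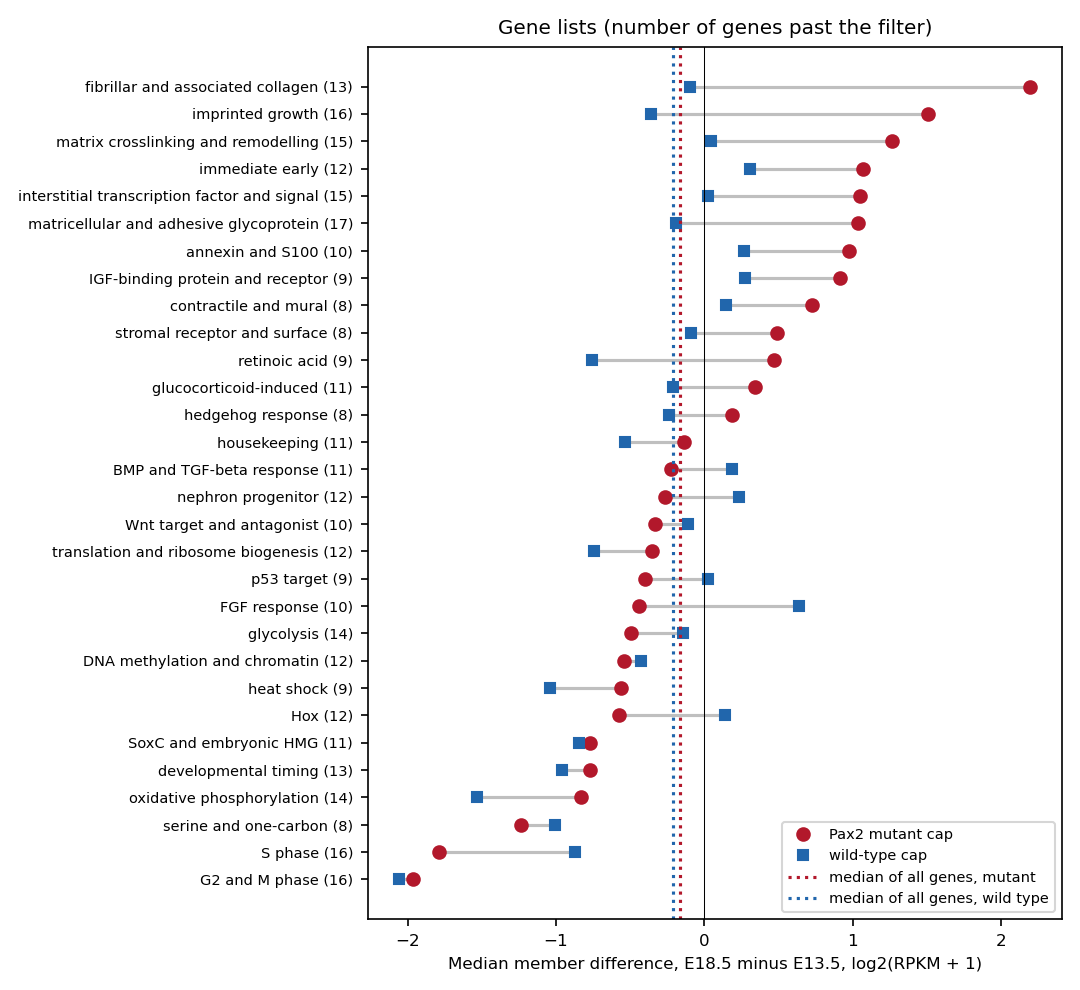
Median difference between E18.5 and E13.5 over the members of each list with 8 or more genes past the filter, with a circle for mutant and a square for wild-type cap cells, and dotted lines at the medians of all genes. Collagen and imprinted growth genes lie at 2.20 and 1.51 in mutant cells and near or below 0 in wild type, while G2 and M phase genes lie at -1.96 and -2.06 in the 2 genotypes.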

How the data were processed

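RNA was measured in single cells, each a sample of its own, and grouped by the labels' source name, genotype and age. The authors deposited a table of RPKM for 36186 gene entries in 237 cells, aligned to mm10 with TopHat per the submitters' processing notes. The version, gene models and counting rule are not given in the sources used here. RPKM gives no depth, and ratios of low values showed no read steps (13.3% in the 3 fullest bins over 190 cell pairs). Analysis used Python 3.11.15, pandas 2.3.3 and numpy 2.4.6. Genes detected (1 RPKM or more) in 10% of E18.5 or of E13.5 cells were kept, and values were averaged as log2(RPKM + 1). Coordinates are those of the deposited table. Calculations were tested on simulated data. No p-value was computed, because each age is 1 sample. No doublet caller was used. A further cell with conflicting labels entered no comparison.

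The members and the 51 lists (604 genes, 1 unmatched) were chosen with earlier results of these data known, and some genes are not reported here. Named genes are Penk, Postn, Ifitm1, Hmga2, Sox11, Pax2, list members, and, in each direction, the 15 that differ most and reach 1 RPKM in at least 50% of cells at the higher age, without Gm, Rik and LOC entries, Xist, and mitochondrial, ribosomal protein and haemoglobin genes. Alternatives changed the pseudocount, filter, scaling, summary or cells.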

Additional observations from a re-analysis of the deposited data

Results flagged for a closer look

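For 14 named or listed genes, mutant cells were past 1 log2 unit in one direction between E18.5 and E13.5 and wild-type cap cells past it in the other. The difference between genotypes was not tested, since each group is 1 sample, and the wild-type groups also differ in sex, pool and date. Over all 10160 genes kept in both genotypes, 54 were higher in mutant and lower in wild-type cells, and 16 the reverse. Values below are the mutant age difference minus the wild-type age difference.

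Among genes higher in mutant and lower in wild-type cells, the interstitial genes Meis1 (5.56) and Crabp1 (4.6) and the membrane protein gene Ifitm2 (4.83) differed most. The imprinted neighbours gave 4.52 for Cdkn1c, 4.38 for Igf2 and 3.50 for H19. The mean of Cdkn1c was 9.27 and 7.54 in E18.5 and E13.5 mutant cells, and 4.09 and 6.88 in E18.5 and E13.5 wild-type cap cells. The matrix genes Fbln1, Mfap4 and Mmp2 gave 3.45, 2.68 and 2.32, and S100a10 gave 2.15. Cox4i1 gave 2.19, but its mutant difference is negative without the pseudogene-high cells.

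Genes lower in mutant and higher in wild-type cells were Robo2 (-4.98), the Slit receptor, Enc1 (-4.97), a kelch protein gene, and Vcan (-3.18). Robo2 and Enc1 were chosen after their values were seen. Robo2 had means of 1.23 and 4.37 in E18.5 and E13.5 mutant cells, and 5.72 and 3.88 in E18.5 and E13.5 wild-type cap cells.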

How the results depend on the processing

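No paired analysis was possible because cells carry no number or animal shared between ages. The counts of 727 higher and 1252 lower genes depend on the scale: 1390 and 2795 with a pseudocount of 0.1, 235 and 221 with 10, 447 and 745 among 3471 genes kept at 50% of cells, and 2474 and 2357 as log2 ratios of group mean RPKM. The higher genes were 36.7% of those past 1 log2 unit, 51.5% with a pseudocount of 10, 51.2% as ratios of means and 21.4% without pseudogene-high cells, where 2187 genes were lower. List scores kept their sign under every alternative except Notch, Wnt, adipocyte, housekeeping, sex linked and tubule. With a pseudocount of 0.1, score differences were 3.07 for collagens and -1.84 for developmental timing, and with 10 the timing difference was -0.47. As ratios of means they were -2.97 for epithelial adhesion, -1.02 for ureteric epithelium, 1.45 for complement, 2.19 for IGF-binding genes, 1.70 for contractile genes, 0.23 for endothelium, 2.72 for immune genes and 0.29 for neural genes. The epithelial and immune differences were -0.04 and 0.03 without the cells that hold those genes, which was tried after seeing the data. Ratios of means turned the sign of Eed (0.17), Mmp2 (-0.064) and Rrm1 (0.15), and leaving out pseudogene-high cells that of Cox4i1 (-0.56). The cause was not tested. Penk differed by 4.27 to 8.46 and Hmga2 by -7.25 to -2.63 over the alternatives. Counting any value above 0 gave Hmga2 in 10 of 44 and 24 of 29 cells.

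Each age is 1 sample, 1 pool and 1 date, and E18.5 mutant cells held fewer genes. In 33 and 17 cells with 3000 to 5000 genes, 900 genes were higher and 1351 lower. Depth is unknown, so a value of 0 may be a transcript missed at capture.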

Other observations

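Some genes of E18.5 mutant cells were high beside both E13.5 mutant cells and wild-type interstitium cells of E18.5. Sex was not matched in the latter contrast: Xist alone marked 42 of 44 mutant cells, and Y genes alone 70 of 71 interstitium cells. Pool (4 in mutant, 2 or 3 in interstitium cells) and median genes per cell (3643 and 5178) differed as well. The share of sex, pool and gene number in these differences was not tested. Sfrp4, a secreted Wnt antagonist, had a lowest value of 0, a median of 25.3 and a highest of 896 RPKM in E18.5 mutant cells and was listed at 0 in all 29 E13.5 mutant cells. It was detected in 27 of 44 E18.5 mutant cells and 2 of 71 interstitium cells, with means of 4.36 and 0.11. Figf, which encodes the lymphatic growth factor VEGF-D, was detected in 34 of 44 E18.5 mutant, 1 of 29 E13.5 mutant and 22 of 71 interstitium cells. Both were chosen after their values were seen. Among listed genes, Meg3 (5.77 against 2.05), Rian (5.09 against 1.71), Sparcl1 (5.78 against 2.24) and Dlk1 (3.59 against 0.94) had higher means in E18.5 mutant than in interstitium cells.

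Of 10 Wnt target and antagonist genes past the filter, 2 were higher at E18.5 than at E13.5 in mutant cells and none lower (median -0.33), the antagonist genes Sfrp1 (3.77; -0.69 in wild type) and Dkk2, which was detected in 14 of 44 E18.5 and 0 of 29 E13.5 cells. Of 5 Notch genes past the filter, 1 was higher and none lower, the receptor gene Notch2 (2.15; -0.21). Over all genes 6.69% were higher. Dkk2, undetected at E13.5, passed the filter through E18.5 cells alone, so its direction was set by the filter. Of 12 Hox genes past the filter, 1 was higher (Hoxc10, 1.48) and 3 were lower (Hoxb9, -1.72, Hoxa10, -1.40, and Hoxd10, -1.03). Cartilage markers were found in 0 of 44 E18.5 and 13 of 29 E13.5 mutant cells, always Col2a1 alone. In wild-type cap cells any of these 3 markers was found in 34 of 74 at E18.5 and 5 of 18 at E13.5, so they were not particular to E13.5 mutant cells.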
